A study of Mus musculus with 3 samples.

Results

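The 40 genes described here encode integrin subunits, laminin chains and 4 further proteins of the basement membrane: nidogen 1 and nidogen 2 (Nid1, Nid2), perlecan (Hspg2) and agrin (Agrn). Members were chosen by gene name alone: Itga or Itgb followed by a number or by a leukocyte or vitronectin letter, Lama, Lamb or Lamc followed by a number, and the 4 named genes. The platelet subunit gene Itga2b fell outside this name rule. The rule gave 17 integrin alpha subunits, 8 integrin beta subunits and 11 laminin chains. All 40 were listed in each of the 3 tables, which held 28930, 26353 and 26350 genes. They were measured by single-nucleus RNA sequencing of epididymal white fat from male C57BL/6J mice, bought at 5 weeks of age and acclimatised for 1 week. The Ctrl group stayed on an ordinary diet, while the Mid_Ob and Ob groups received a diet with 60% fat. Mid_Ob mice, sampled at week 7 of the scheme, weighed over 10% more than the control mean, and Ob mice, sampled at week 9, over 20% more. Fat of 8 mice was pooled into 1 library per stage. There was therefore no replicate check on any difference between stages and no test was made; every value below compares libraries, and the intervals given cover counting error only.

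Integrins are receptors made of 1 alpha and 1 beta subunit that tie cells to the extracellular matrix or to other cells. Laminins are trimers of an alpha, a beta and a gamma chain, and together with type IV collagen, nidogens and perlecan they form the basement membrane, the thin sheet that surrounds each adipocyte and underlies endothelium and mesothelium. In fat, laminins with the alpha 4 chain (Lama4) are a main part of the adipocyte's sheet, the alpha 2 chain (Lama2) is made by fibroblasts, and the beta 2 integrins (Itgal, Itgam, Itgax or Itgad with Itgb2) belong to leukocytes.

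The libraries held 53980929 (Ctrl), 57665213 (Mid_Ob) and 111595518 (Ob) unique molecules (UMIs), in 14, 11 and 21 clusters. Levels are given in CPM, the UMIs of a gene scaled to a total of 1000000 UMIs in the library, class or cluster named. They depend on transcript length and on gene structure, so they are compared between stages and clusters and not between genes. Every member had at least 108 UMIs in each library. A member is called higher or lower where the ratio of CPM passed 1.5-fold with at least 50 UMIs in the pair. Clusters were named from marker lists that hold no member. The libraries did not hold the same tissues: in Ctrl, germ cell-like clusters took 26.3% of UMIs, a testis somatic-like cluster 15.4% and an epididymal epithelium-like cluster 5.32%, in Mid_Ob epididymal epithelium-like clusters took 30.3%, and no Ob cluster was named as either tissue. In the order Ctrl, Mid_Ob, Ob, adipocyte-like clusters took 25.2%, 46.9% and 55.4% of UMIs and macrophage-like clusters 8.85%, 6.15% and 19.6%. The same order holds for sets of 3 values below, unless clusters, genes or comparisons are named for them. In whole libraries fewer cells of a type and less RNA per cell cannot be told apart. The epididymal markers summed to 16472 CPM in the epididymal epithelium-like clusters of Mid_Ob and to 2358 CPM in its adipocyte-like cluster, against 1.28 CPM in the adipocyte-like clusters of Ob. In the other classes of Mid_Ob they summed to between 1706 and 3576 CPM. The tables hold no values per nucleus, so free RNA and doublets cannot be told apart, and their part in the results below was not tested.

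Whole libraries came first. In Mid_Ob against Ctrl, 9 of the 40 members were higher (22.5%, against 17.3% of all 22208 genes compared) and 5 were lower (12.5%, against 35.5% of all genes). In Ob against Mid_Ob, 11 were higher (27.5%, against 17.5% of all genes) and 14 lower (35.0%, against 27.3% of all genes). In Ob against Ctrl, 13 were higher (32.5%, against 18.1% of all genes) and 14 lower (35.0%, against 43.5% of all genes). Without the testis and epididymis clusters these counts became 11 higher and 9 lower (15.6% and 22.9% of all genes), 8 higher and 17 lower (15% and 24.8%), and 6 higher and 13 lower (17% and 31.9%). Of the members past the limit, 12 of 14, 22 of 25 and 16 of 27 kept their direction and side of it without those clusters, and the exceptions are named with their values below. With every cluster at equal weight 8 of 14, 20 of 25 and 20 of 27 did. Those that came within the limit were Itga10, Itgae, Itgb3, Itgb5, Lamc1 and Hspg2 in Mid_Ob over Ctrl, Itgav, Itga4, Lama2, Lamb1 and Lamb2 in Ob over Mid_Ob, and Itga6, Itgax, Itgb2, Itgb4, Itgb6, Lamb2 and Hspg2 in Ob over Ctrl. The median log2 ratio of the members was 0.15, -0.04 and 0.04 in the 3 comparisons, against -0.16, -0.09 and -0.35 over all genes compared.

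**Figure D1:**
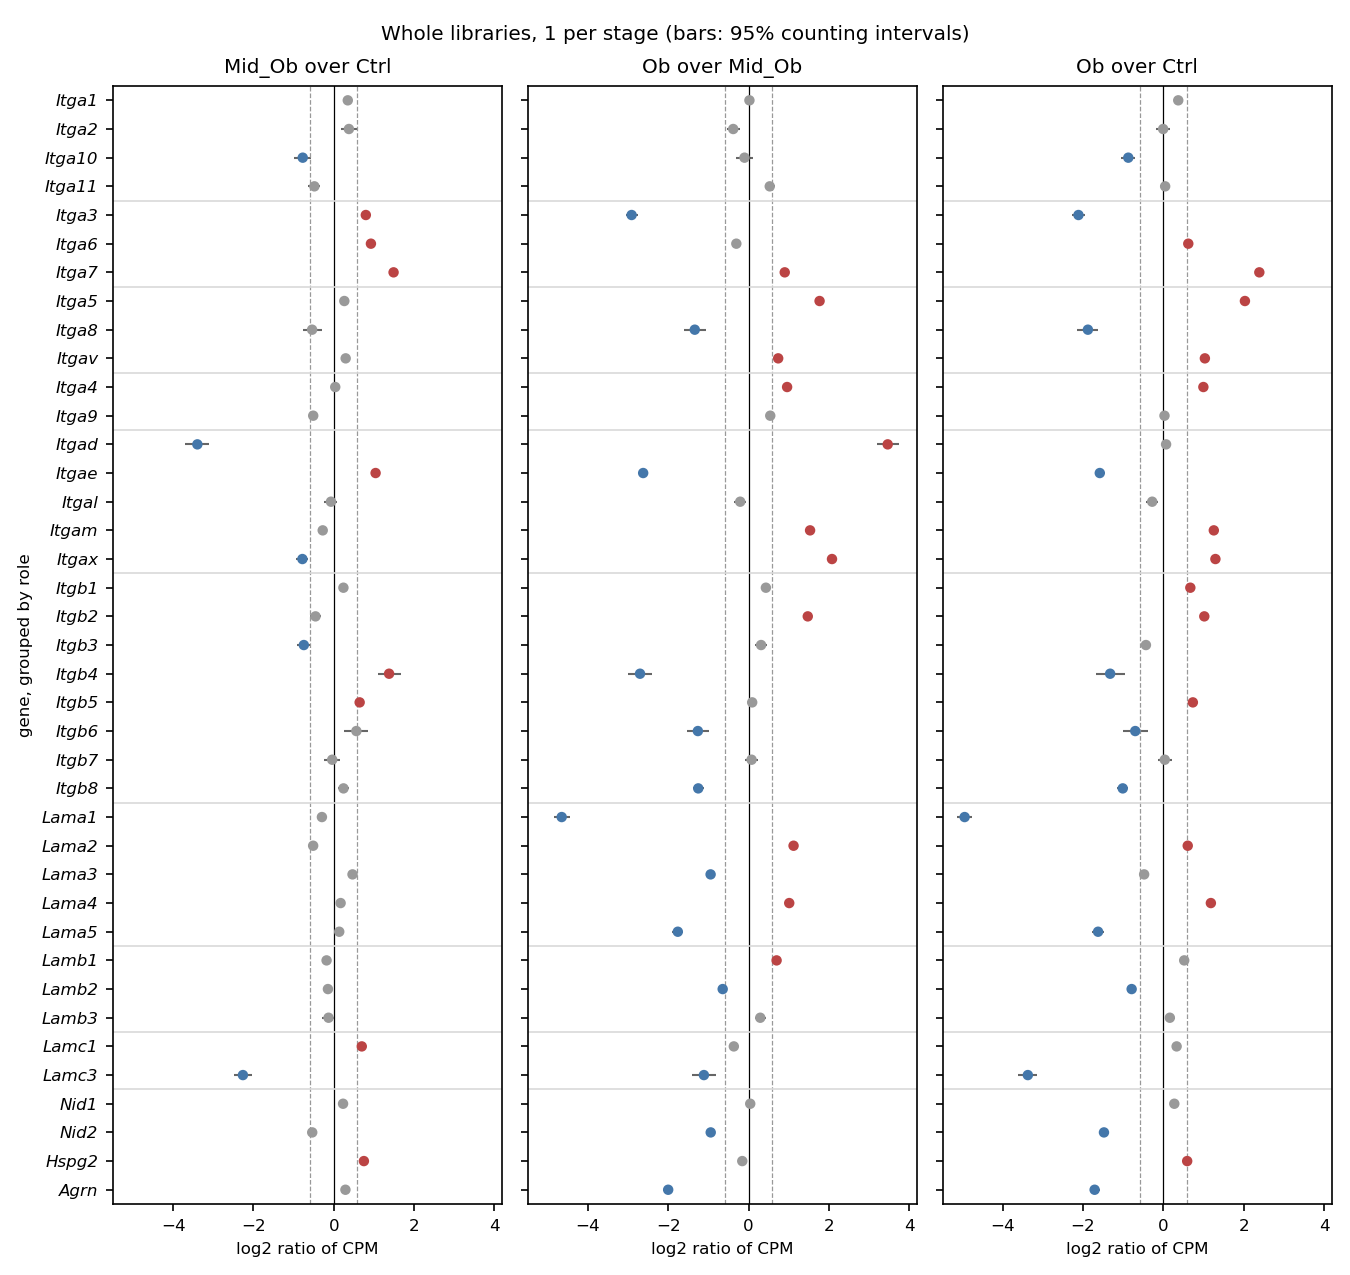
Log2 ratio of CPM between whole libraries for the members, grouped by role and separated by grey lines, in Mid_Ob over Ctrl, Ob over Mid_Ob and Ob over Ctrl (1 library per stage). Points are red where higher and blue where lower past 1.5-fold (dashed lines), and bars are 95% counting intervals; Itga7 is to the right in all 3 panels, and Lama1 is farthest to the left in both panels with Ob.

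The laminin-binding alpha subunits moved apart from each other. Itga7, whose product binds laminin with beta 1 in muscle and adipocytes, stood at 25.2 CPM in Ctrl, 70.7 in Mid_Ob and 132 in Ob. It was 2.81-fold (2.64 to 2.99) higher in Mid_Ob than in Ctrl and 1.87-fold (1.80 to 1.93) higher in Ob than in Mid_Ob. Without testis and epididymis clusters Itga7 was still higher in Mid_Ob (2.67-fold), and 1.37-fold in Ob over Mid_Ob, which is under the limit. Itga6, the alpha subunit shared by the laminin receptors of epithelium and endothelium, stood at 86.9, 165 and 134 CPM. It was higher in Ob than in Ctrl, but 1.22-fold without testis and epididymis clusters, where it was instead 1.54-fold lower in Ob than in Mid_Ob. Itga3, typical of epithelium and mesothelium, stood at 17.7, 30.8 and 4.10 CPM and was 7.53-fold (6.79 to 8.36) lower in Ob than in Mid_Ob. Its higher level in Mid_Ob than in Ctrl was not seen without testis and epididymis clusters, where it stood at 22.0 and 20.4 CPM.

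Among the collagen-binding alpha subunits, Itga10 was lower in Mid_Ob and Ob than in Ctrl (8.95, 5.24 and 4.88 CPM). Itga1 (58.5, 74.6 and 75.7 CPM), Itga2 (7.08, 9.19 and 7.05 CPM) and Itga11 (16.04, 11.5 and 16.6 CPM) stayed within the limit in all 3 comparisons. Without testis and epididymis clusters Itga1 alone of these did: Itga2 was 1.60-fold higher in Mid_Ob than in Ctrl and 1.62-fold lower in Ob than in Mid_Ob, and Itga11 was 1.64-fold lower in Mid_Ob than in Ctrl.

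The alpha subunits that bind the RGD sequence of fibronectin and vitronectin divided. Itga5, the fibronectin receptor subunit, stood at 25.7, 30.9 and 105 CPM and was 3.41-fold (3.24 to 3.58) higher in Ob than in Mid_Ob. Itgav, the partner of several beta subunits, stood at 112, 138 and 229.8 CPM, 1.67-fold (1.63 to 1.71) higher in Ob than in Mid_Ob. Both differences remained past the limit without testis and epididymis clusters (2.64-fold and 1.58-fold). Itga8, found in contractile and stromal cells, was instead lower in Ob (6.43, 4.42 and 1.75 CPM). Without those clusters Itga8 stood at 2.59, 5.22 and 1.75 CPM, still lower in Ob than in Mid_Ob, but within the limit of Ctrl (1.48-fold) and 2.02-fold higher in Mid_Ob than in Ctrl. Another gene, Gm13684, lies on the opposite strand within Itgav, and the strand used in counting is not given in the sources used here. It took 11.6, 24.7 and 35.8 CPM.

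The leukocyte alpha subunits Itgam and Itgax and the alpha 4 subunit were highest in Ob. Itgam (CD11b) stood at 42.5, 35.1 and 101.5 CPM, Itgax (CD11c) at 17.7, 10.3 and 43.4 CPM, and Itgb2 (CD18), their common partner, at 20.8, 15.2 and 42.2 CPM. In Ob over Mid_Ob the ratios were 2.89 (2.76 to 3.03), 4.22 (3.88 to 4.61) and 2.78 (2.58 to 2.99). Itga4, which binds VCAM1 and fibronectin, was 1.95-fold (1.88 to 2.01) higher in Ob than in Mid_Ob (71.7, 73.6 and 143 CPM). Without testis and epididymis clusters the ratio of Ob to Ctrl came within the limit for both Itga4 (1.35) and Itgb2 (1.35), and Itgb2 was 1.66-fold lower in Mid_Ob than in Ctrl. In Ob over Mid_Ob, 13 of 15 macrophage markers other than Lpl were higher and none was lower, and their summed level was 1068 CPM in Mid_Ob and 3068 CPM in Ob; their part in these results was not tested. Itgal, the lymphocyte alpha L subunit, stayed within the limit (11.4, 10.9 and 9.43 CPM), as did Itga9 (82.8, 58.1 and 84.4 CPM).

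Itgad and Itgae were high in clusters of testis or epididymis. Itgad stood at 19.7, 1.87 and 20.7 CPM, and its level in Ctrl became 4.30 CPM without testis and epididymis clusters, which made Ob 4.81-fold higher than Ctrl. Itgae, the alpha E subunit of epithelial lymphocytes, stood at 24.6, 50.6 and 8.20 CPM, and at 9.62, 28.4 and 8.20 CPM without those clusters, where Ob and Ctrl were within the limit. Its highest levels were in the epididymal epithelium-like clusters 2 and 3 of Mid_Ob (112 and 93.5 CPM) and in the germ cell-like clusters 12 and 13 of Ctrl (91.0 and 99.2 CPM). Haspin, a kinase gene of germ cells, lies on the opposite strand within Itgae and took 22.7 CPM in the germ cell-like clusters, so reads of the pair cannot be told apart there. Another transcript, 4931431B13Rik, lies on the opposite strand within Itgad. In the germ cell-like clusters of Ctrl it stood at 17.3 CPM and Itgad at 61.7 CPM, and in cluster 12 alone at 104 and 102 CPM. Reads of that pair cannot be told apart either, so the ratios of Itgad given here cannot be assigned to it alone.

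Of the beta subunits, Itgb1, the partner of most matrix-binding alpha subunits, stood at 146, 173 and 233 CPM and was higher in Ob than in Ctrl (1.59-fold, 1.55 to 1.63), but 1.23-fold without testis and epididymis clusters. Itgb5, a vitronectin receptor subunit, stood at 72.0, 113 and 119.8 CPM and was higher in Mid_Ob than in Ctrl (1.56-fold, 1.502 to 1.63). It was also higher in Ob than in Ctrl, but 1.40-fold without those clusters. Itgb4, the hemidesmosome subunit, was 6.51-fold (5.29 to 8.07) lower in Ob than in Mid_Ob (2.65, 6.88 and 1.06 CPM), and Itgb8 2.38-fold (2.17 to 2.61) lower (15.1, 17.9 and 7.50 CPM). Itgb6 (2.85, 4.21 and 1.76 CPM) was also lower in Ob. With testis and epididymis clusters left out Itgb6 stood at 1.22, 4.75 and 1.76 CPM, lower in Ob than in Mid_Ob but not than in Ctrl (1.44-fold higher, within the limit), and 3.88-fold higher in Mid_Ob than in Ctrl. Itgb3 was lower in Mid_Ob than in Ctrl (13.5, 8.06 and 10.0 CPM), but 1.41-fold without the unnamed clusters, and without testis and epididymis clusters it was 1.88-fold lower in Ob than in Ctrl. Itgb7 stayed within the limit (7.93, 7.72 and 8.13 CPM).

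The laminin alpha chains split into those higher and those lower in Ob. Lama4 stood at 306, 344 and 694 CPM, 2.02-fold (1.99 to 2.05) higher in Ob than in Mid_Ob, and Lama2 at 152, 106 and 231 CPM, 2.17-fold (2.11 to 2.24) higher. Without testis and epididymis clusters the ratio of Lama4 was 1.47 and that of Lama2 was 1.82. Both were also higher in Ob than in Ctrl, but 1.46-fold and 1.19-fold without those clusters, where Lama2 was 1.53-fold lower in Mid_Ob than in Ctrl. Lama1, the chain of early embryonic and some epithelial basement membranes, stood at 62.8, 51.2 and 2.03 CPM and was 25.2-fold (22.0 to 28.9) lower in Ob than in Mid_Ob. Without those clusters it stood at 18.5, 29.7 and 2.03 CPM, which made it 1.60-fold higher in Mid_Ob than in Ctrl. Lama5 (17.7, 19.4 and 5.73 CPM) and the epithelial chain Lama3 (19.9, 27.5 and 14.3 CPM) were lower in Ob than in Mid_Ob as well, and without those clusters Lama3 was lower in Ob than in Ctrl too (1.98-fold).

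Among the other laminin chains, Lamb1 was higher in Ob than in Mid_Ob (50.2, 44.4 and 72.0 CPM; 1.62-fold, 1.55 to 1.70), and 1.27-fold without testis and epididymis clusters. Lamb2 was lower (21.2, 19.1 and 12.3 CPM), and Lamb3, in the chain set of epithelial laminin, stayed within the limit (12.4, 11.3 and 13.9 CPM). Lamc1, the gamma chain of most laminins, was highest in Mid_Ob (224, 364 and 282 CPM), 1.49-fold above Ctrl and 1.71-fold above Ob without testis and epididymis clusters. Lamc3 was lowest in Ob (15.9, 3.31 and 1.53 CPM).

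The linkers of the sheet behaved differently from each other. Nid2 stood at 71.3, 49.1 and 25.6 CPM, 2.79-fold (2.66 to 2.93) lower in Ob than in Ctrl, and without testis and epididymis clusters it was also lower in Mid_Ob than in Ctrl (1.58-fold). Its relative Nid1 stayed within the limit (114, 134 and 138 CPM). Agrn was 4.01-fold (3.69 to 4.35) lower in Ob than in Mid_Ob (25.3, 30.9 and 7.72 CPM). Hspg2, the large heparan sulfate proteoglycan, was higher in Mid_Ob than in Ctrl (81.0, 136 and 122 CPM; 1.68-fold, 1.62 to 1.75). It was higher in Ob than in Ctrl too, but 1.07-fold without those clusters.

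The members sorted by class of clusters, which is a description because the clusters were made from all genes, these included. In Ob, adipocyte-like clusters held 93.0% of the Itga7 UMIs, 87.2% of those of Lama4 and 79.6% of those of Itga6. Fibroblast or progenitor-like clusters held 54.4% of the Lama2 UMIs, and macrophage-like clusters held 45.5% of those of Itgax, 44.1% of those of Itgb2 and 42.0% of those of Itgam. The mesothelial-like cluster, with 2.48% of all UMIs, held 41.1% of the Itga3 UMIs and 29.8% of those of Lamc3. Lama2 is among the leading genes of fibroblast clusters, so its place there was used in making them.

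**Figure D2:**
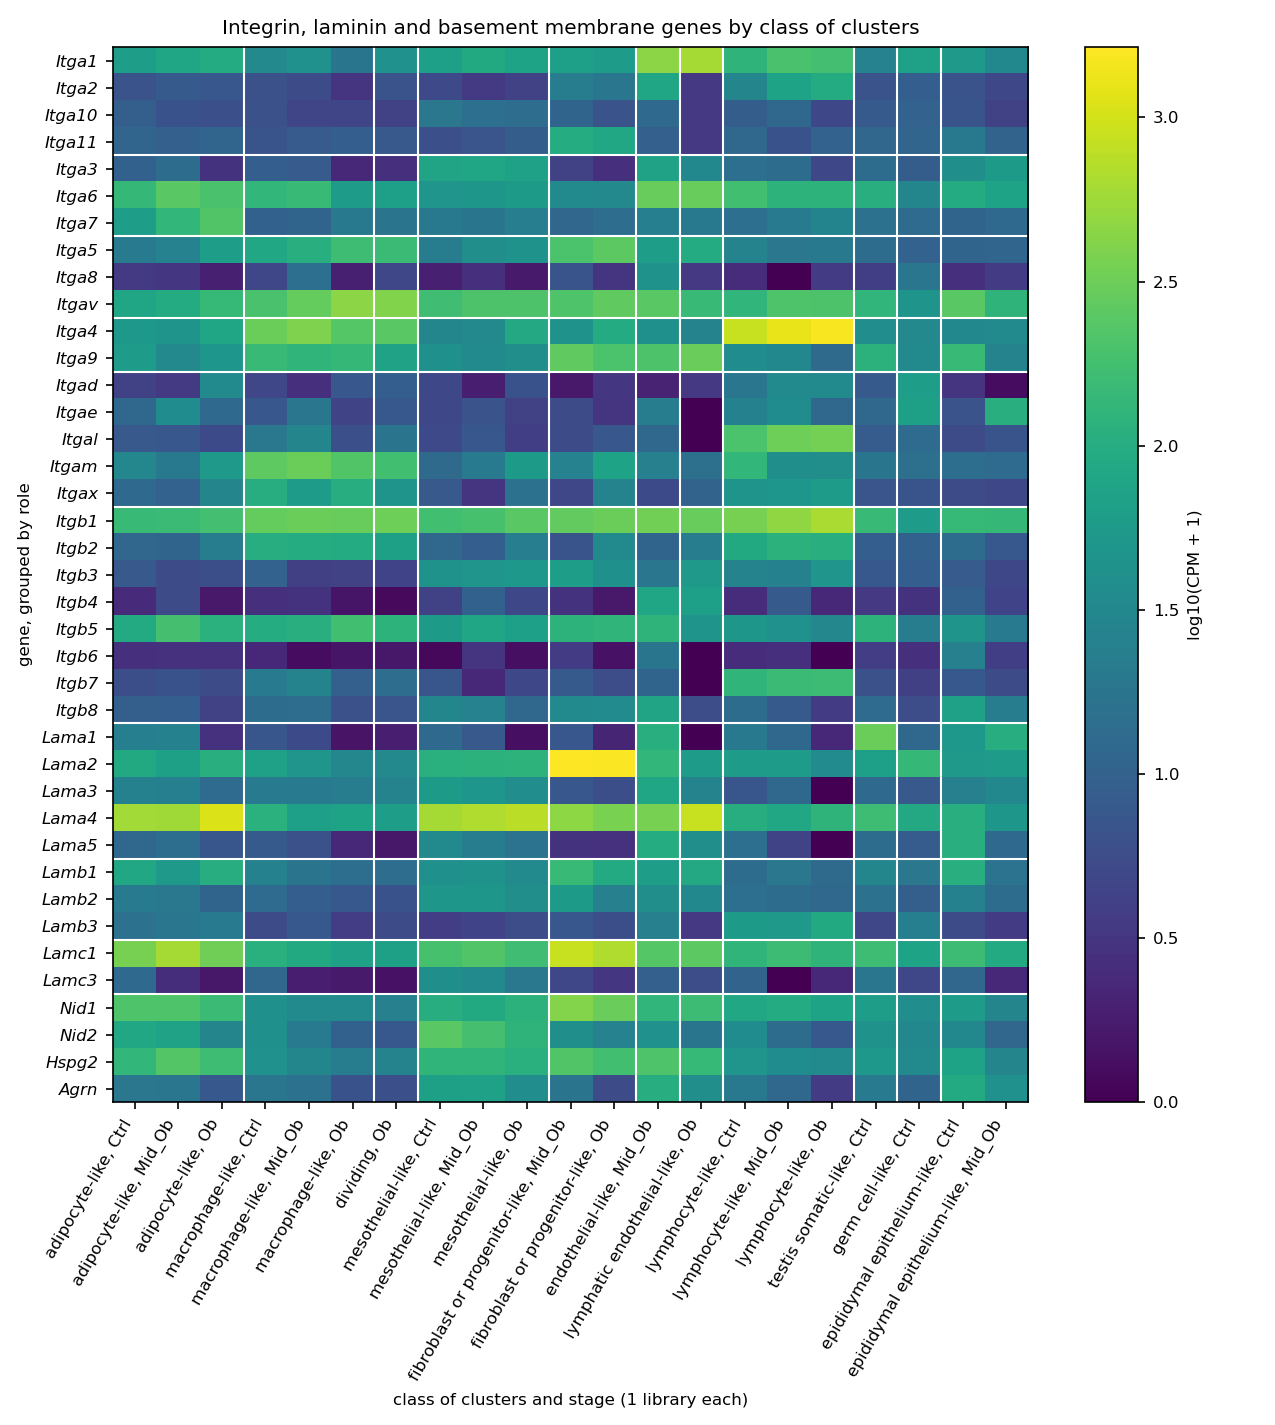
Level of the members, as log10(CPM + 1), in each class of clusters and stage (columns, 1 library per stage; white lines separate roles and classes). Lama4 is bright in adipocyte-like and mesothelial-like columns, Lama2 in fibroblast or progenitor-like columns, Itga4 in lymphocyte-like columns, Itgam and Itgav in macrophage-like columns, and Itga1 in the endothelial columns.

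Within adipocyte-like clusters (Ctrl 2, Mid_Ob 1 and Ob 4, 5 and 7, by library and cluster number), the laminin receptor Itga7 and the laminin chain Lama4 had their highest levels in Ob and the nidogen Nid2 its lowest. In Mid_Ob over Ctrl, 7 of 40 members were higher (17.5%, against 15.3% of all genes) and 6 lower (15%, against 20.2% of all genes). In Ob over Mid_Ob, 11 were higher (27.5%, against 15.3% of all genes) and 16 lower (40.0%, against 19% of all genes). In Ob over Ctrl, 9 were higher (22.5%, against 18.8% of all genes) and 14 lower (35.0%, against 27.6% of all genes). The shares of higher and lower genes were thus above those of all genes in Ob over Mid_Ob, and near them in Mid_Ob over Ctrl.

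Cluster 5 of Ob, the largest, stood apart. Macrophage markers without Lpl, a gene that adipocytes use too, summed to 2564 CPM in it, 521 in cluster 4 and 511 in cluster 7. The same sum was 1285 CPM in the adipocyte-like cluster of Ctrl and 723 CPM in that of Mid_Ob. With cluster 5 set apart, 5 members were higher and 24 lower in Ob than in Mid_Ob (9.88% and 26.3% of all genes), and of the 38 with enough UMIs 6 were higher and 20 lower in Ob than in Ctrl (14.2% and 35.1% of all genes). Members whose direction changed without cluster 5 are given by cluster below.

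Lama4 was the clearest case of a member that did not depend on cluster 5. It stood at 586 CPM in Ctrl, 574 in Mid_Ob, and 1434, 878 and 1329 CPM in clusters 4, 5 and 7 of Ob. All 3 clusters of Ob lay above both other stages. The ratio of Ob to Mid_Ob was 1.91 (1.87 to 1.94), and 2.44 with cluster 5 set apart. Lamb1, a chain that can join Lama4 and Lamc1 in a laminin, stood at 84.7 and 54.5 CPM in Ctrl and Mid_Ob and at 125, 80.2 and 131 CPM in clusters 4, 5 and 7 of Ob. Lamc1 stood at 360 and 601 CPM and at 355, 301 and 401 CPM. Lamc1 was thus 1.67-fold (1.62 to 1.72) higher in Mid_Ob than in Ctrl and 1.83-fold (1.79 to 1.87) lower in Ob than in Mid_Ob, while Lama4 and Lamb1 had the opposite direction in the later step.

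Itga7 stood at 59.8 CPM in Ctrl, 135 in Mid_Ob, and 296, 174 and 273 CPM in clusters 4, 5 and 7 of Ob. Each step was past the limit, at 2.26-fold (2.09 to 2.44) and 1.64-fold (1.58 to 1.71), the latter 1.42-fold without cluster 4 of Ob. Itga6 stood at 138 and 243 CPM and at 239.5, 162 and 224 CPM, so it was higher in Mid_Ob than in Ctrl (1.76-fold, 1.67 to 1.85) and stayed within the limit between Mid_Ob and Ob. With cluster 5 set apart it was 1.70-fold higher in Ob than in Ctrl. Itga1, the collagen and laminin receptor subunit, was higher in Ob than in Ctrl (61.9, 77.3 and 93.6 CPM; 1.51-fold, 1.41 to 1.63), but 1.33-fold without cluster 4 of Ob. Their common partner Itgb1 stood at 152, 156 and 177 CPM, within the limit throughout.

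Itgb5 was highest in Mid_Ob (91.2, 184 and 111 CPM), 2.02-fold (1.90 to 2.15) above Ctrl and 1.66-fold (1.60 to 1.72) above Ob. Hspg2 (132, 222 and 162 CPM) was higher in Mid_Ob than in Ctrl and within the limit between Mid_Ob and Ob. Nid2 stood at 84.1 CPM in Ctrl and 70.8 in Mid_Ob, and at 31.2, 26.3 and 32.0 CPM in clusters 4, 5 and 7 of Ob. All 3 lay below both other stages, and the ratio of Mid_Ob to Ob was 2.49 (2.33 to 2.66). Nid1 (212, 215 and 156 CPM) stayed within the limit. Agrn (17.5, 17.02 and 6.65 CPM), Lama3 (25.0, 23.3 and 12.4 CPM), Lamb2 (19.9, 18.2 and 9.95 CPM) and Lama5 (10.7, 13.5 and 6.18 CPM) were each lower in Ob than in both other stages.

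**Figure D3:**
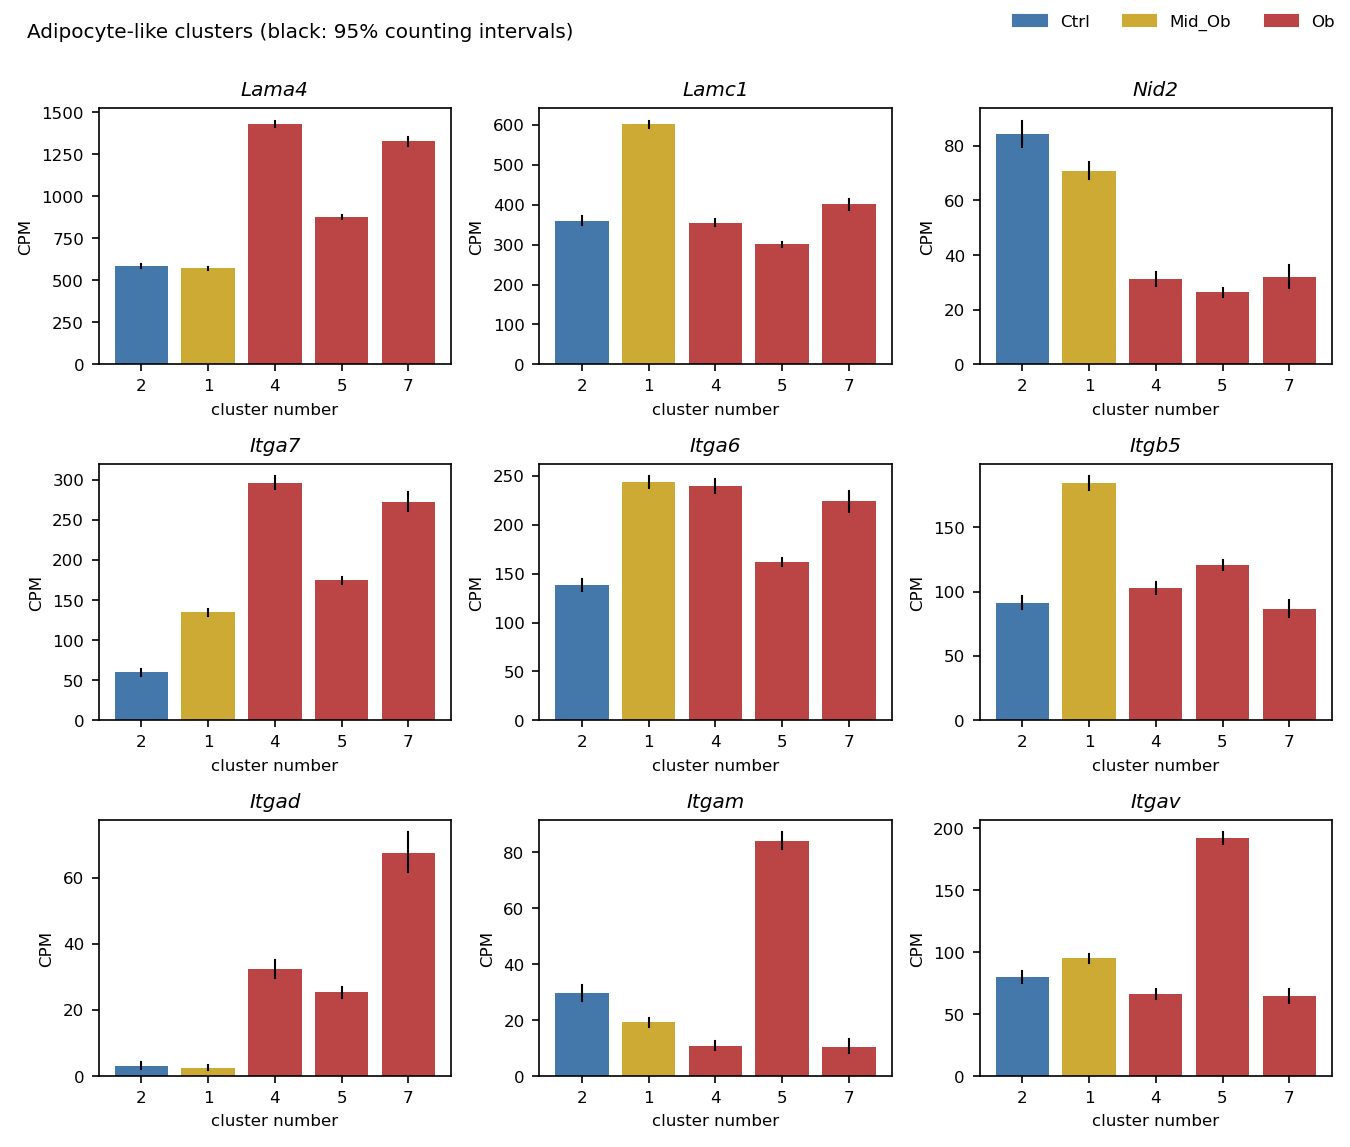
CPM of 9 members in each adipocyte-like cluster (x axis, cluster number within its library; blue Ctrl, yellow Mid_Ob, red Ob; black bars, 95% counting intervals). The 3 Ob clusters are above both other stages for Lama4 and Itga7 and below them for Nid2, while Itgam and Itgav are high in cluster 5 of Ob and not in clusters 4 and 7.

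Other members differed through cluster 5. Itgam stood at 29.7 CPM in Ctrl, 19.2 in Mid_Ob, and 10.9, 84.1 and 10.6 CPM in clusters 4, 5 and 7 of Ob. The ratio of Ob to Mid_Ob was 2.81 (2.56 to 3.09) over the 3 clusters, and with cluster 5 set apart Itgam was 1.77-fold lower in Ob. Itga4, Itga9 and Lama2 changed direction in the same way. In clusters 4, 5 and 7 of Ob, Itga4 stood at 18.9, 115 and 21.5 CPM and Itga9 at 14.6, 70.4 and 18.9 CPM. Lama2 stood at 27.8, 150.3 and 55.6 CPM in these clusters. With clusters 4, 5 and 7 of Ob in that order, Itga5 stood at 16.2, 91.9 and 24.8 CPM and Itgb2 at 6.21, 32.2 and 8.06 CPM. Itgav stood at 66.1, 192 and 64.6 CPM, so these members were likewise high in cluster 5 of Ob alone among the 3. Itgax stood at 9.25 CPM in Mid_Ob and at 15.2, 37.3 and 14.1 CPM in the 3 Ob clusters, and remained higher in Ob with cluster 5 set apart (1.61-fold). Macrophage markers without Lpl summed to 2564 CPM in cluster 5, against 521 and 511 CPM in clusters 4 and 7. Lama2 stood at 51.5 CPM in cluster 20 of Ob, its highest level among the macrophage-like clusters there. The part of macrophage RNA in these results was not tested.

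Itgad was the member with the largest ratio among those higher in Ob adipocyte-like clusters. It stood at 3.16 CPM in Ctrl, 2.55 in Mid_Ob, and 32.4, 25.3 and 67.6 CPM in clusters 4, 5 and 7 of Ob. The ratio of Ob to Mid_Ob was 12.7 (10.0 to 16.4), and 16.8 with cluster 5 set apart, so all 3 Ob clusters lay above the other stages. Itgad encodes the alpha D subunit of leukocytes, but its partner Itgb2 stood at 6.21 and 8.06 CPM in clusters 4 and 7. A transcript on the opposite strand within the gene, 4931431B13Rik, stood at 1.32, 1.74 and 25.6 CPM in adipocyte-like clusters. Reads of the pair cannot be told apart without the strand setting, so the difference cannot be assigned to either.

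Several members that were high in testis, epididymal or mesothelial-like clusters were lower in the adipocyte-like clusters of Ob. Lama1 stood at 23.6 and 24.8 CPM in Ctrl and Mid_Ob and at 1.88 CPM in Ob. Its levels in the testis somatic-like cluster of Ctrl and in cluster 3 of Mid_Ob, an epididymal epithelium-like cluster, were 308 and 153 CPM. Itgae stood at 11.2, 35.4 and 11.7 CPM, with 112 CPM in cluster 2 of Mid_Ob. Itga3 (9.03, 12.5 and 1.97 CPM) and Itgb8 (8.30, 8.18 and 3.15 CPM) were lower in Ob than in Mid_Ob. So was Itgb4 (1.39, 4.55 and 0.663 CPM), which in Mid_Ob was highest in the endothelial-like cluster (78.6 CPM). In the epididymal epithelium-like clusters 2 and 3 of Mid_Ob, Itgb4 stood at 3.50 and 3.28 CPM. Lamc3 was lower at each step (11.4, 1.63 and 0.615 CPM), with mesothelial markers, among whose cells it is high, at 510 CPM in the Ctrl cluster and 261 CPM in that of Mid_Ob. The part of RNA from other cells in these results was not tested.

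Within macrophage-like clusters (Ctrl 9 and 11, Mid_Ob 4, Ob 1, 2, 3, 11, 14 and 20), the RGD-binding subunits Itgav and Itga5 and the beta subunit Itgb5 were higher in Ob than in Mid_Ob over all clusters, while Itga4 and Itga6 were lower. For Itgav, Itga5 and Itga4 the difference came within the limit without cluster 2 of Ob, and for Itgb5 without cluster 3. Of 32 members with enough UMIs in Mid_Ob over Ctrl, 2 were higher (6.25%, against 8.71% of all genes) and 6 lower (18.8%, against 14.8% of all genes). Of 34 in Ob over Mid_Ob, 6 were higher (17.6%, against 13.1% of all genes) and 14 lower (41.2%, against 18.4% of all genes). Of 35 in Ob over Ctrl, 5 were higher (14.3%, against 13.7% of all genes) and 20 lower (57.1%, against 24.1% of all genes). Cluster 9 of Ctrl carried adipocyte markers at 3227 CPM and endothelial markers at 277 CPM, against 1142 and 93.7 CPM in cluster 11. Without it, 12 of 25 members were higher and 1 lower in Mid_Ob over Ctrl (15.2% and 7.72% of all genes), and 10 of 32 were higher and 7 lower in Ob over Ctrl (18.3% and 15.3% of all genes). Without it Lama4 and Lamb1 turned from lower to higher in Ob over Ctrl, Lama2, Lamc1 and Hspg2 came within the limit, and Nid2 and Agrn were still lower.

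Itgav stood at 160.2 and 237 CPM in clusters 9 and 11 of Ctrl and at 282 CPM in Mid_Ob. In Ob it stood at 675, 573, 347, 158, 321 and 78.4 CPM in clusters 1, 2, 3, 11, 14 and 20. Over all clusters it was 1.58-fold (1.48 to 1.69) higher in Ob than in Mid_Ob and 2.27-fold (2.12 to 2.42) higher than in Ctrl, or 1.88-fold without cluster 9 of Ctrl. The range over the Ob clusters, 8.61-fold, was wider than the difference between stages. Without cluster 2 of Ob the ratio to Mid_Ob was 1.36, without cluster 1 it was 1.40, and with every cluster at equal weight 1.27, each within the limit. Itga5 stood at 61.9 and 107 CPM in Ctrl and 104 CPM in Mid_Ob, and at 193, 241, 123, 58.1, 83.1 and 44.5 CPM in the 6 clusters of Ob. It was 1.57-fold (1.41 to 1.75) higher in Ob than in Mid_Ob, but 1.20-fold without cluster 2 and 1.19-fold with equal weights. Itgb5, which pairs with Itgav, stood at 96.3, 104 and 173 CPM in the 3 stages, 1.66-fold (1.49 to 1.86) higher in Ob than in Mid_Ob. It remained past the limit without cluster 2 of Ob (1.78-fold) and was just within it without cluster 3 (1.48-fold).

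Itgax stood at 48.0 and 156 CPM in clusters 9 and 11 of Ctrl, 56.4 CPM in Mid_Ob, and 133, 177, 52.2, 10.4, 36.7 and 5.26 CPM in the 6 clusters of Ob. Over all clusters Itgax was within the limit between Ctrl and Ob (99.2 and 100.9 CPM). Ob was 1.54-fold lower than Ctrl without cluster 9 of Ctrl, and 2.105-fold higher without cluster 11 of Ctrl. Against Mid_Ob, Itgax was 1.79-fold (1.55 to 2.08) higher in Ob. That ratio was within the limit without cluster 2 of Ob (1.14-fold) and with equal weights (1.23-fold). Levels in clusters 2 and 20 of Ob differed 33.6-fold. Among the macrophage-like clusters of Ob, clusters 1 and 2 also had the highest levels of Gpnmb (1337 and 3190 CPM), a gene of lipid-laden macrophages. Clusters 11 and 20 had 127 and 57.9 CPM of Gpnmb and 460.3 and 1180.4 CPM of Cd163, a scavenger receptor of resident macrophages. Lyve1, another gene of such macrophages, stood at 245 CPM in cluster 20 and at 2.94 CPM in cluster 2. Cluster 11 of Ctrl had 1461 CPM of Gpnmb, 549 CPM of Cd163 and 114 CPM of Lyve1.

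Itga4 and Itga9 had another order over the Ob clusters. Itga4 stood at 138, 116 and 328 CPM in clusters 1, 2 and 3 and at 456, 412 and 319 CPM in clusters 11, 14 and 20. Over all clusters it was 1.66-fold (1.56 to 1.76) lower in Ob than in Mid_Ob (389 and 234 CPM), but 1.33-fold without cluster 2, and clusters 11 and 14 of Ob lay above Mid_Ob. Itga9 was highest in cluster 20 (243 CPM) and lowest in cluster 2 (98.4 CPM), with stages at 148, 127 and 138 CPM. Itgam (262, 306 and 218 CPM), Itgb1 (281, 307 and 290.4 CPM) and Itgb2 (101, 96.9 and 95.1 CPM) stayed within the limit, without cluster 9 of Ctrl as well. Without cluster 3 of Ob, Itgam was 1.52-fold lower in Ob than in Mid_Ob. The whole-library differences of Itgam and Itgb2 were thus not found within macrophage-like clusters, which took 6.15% of UMIs in Mid_Ob and 19.6% in Ob.

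**Figure D4:**
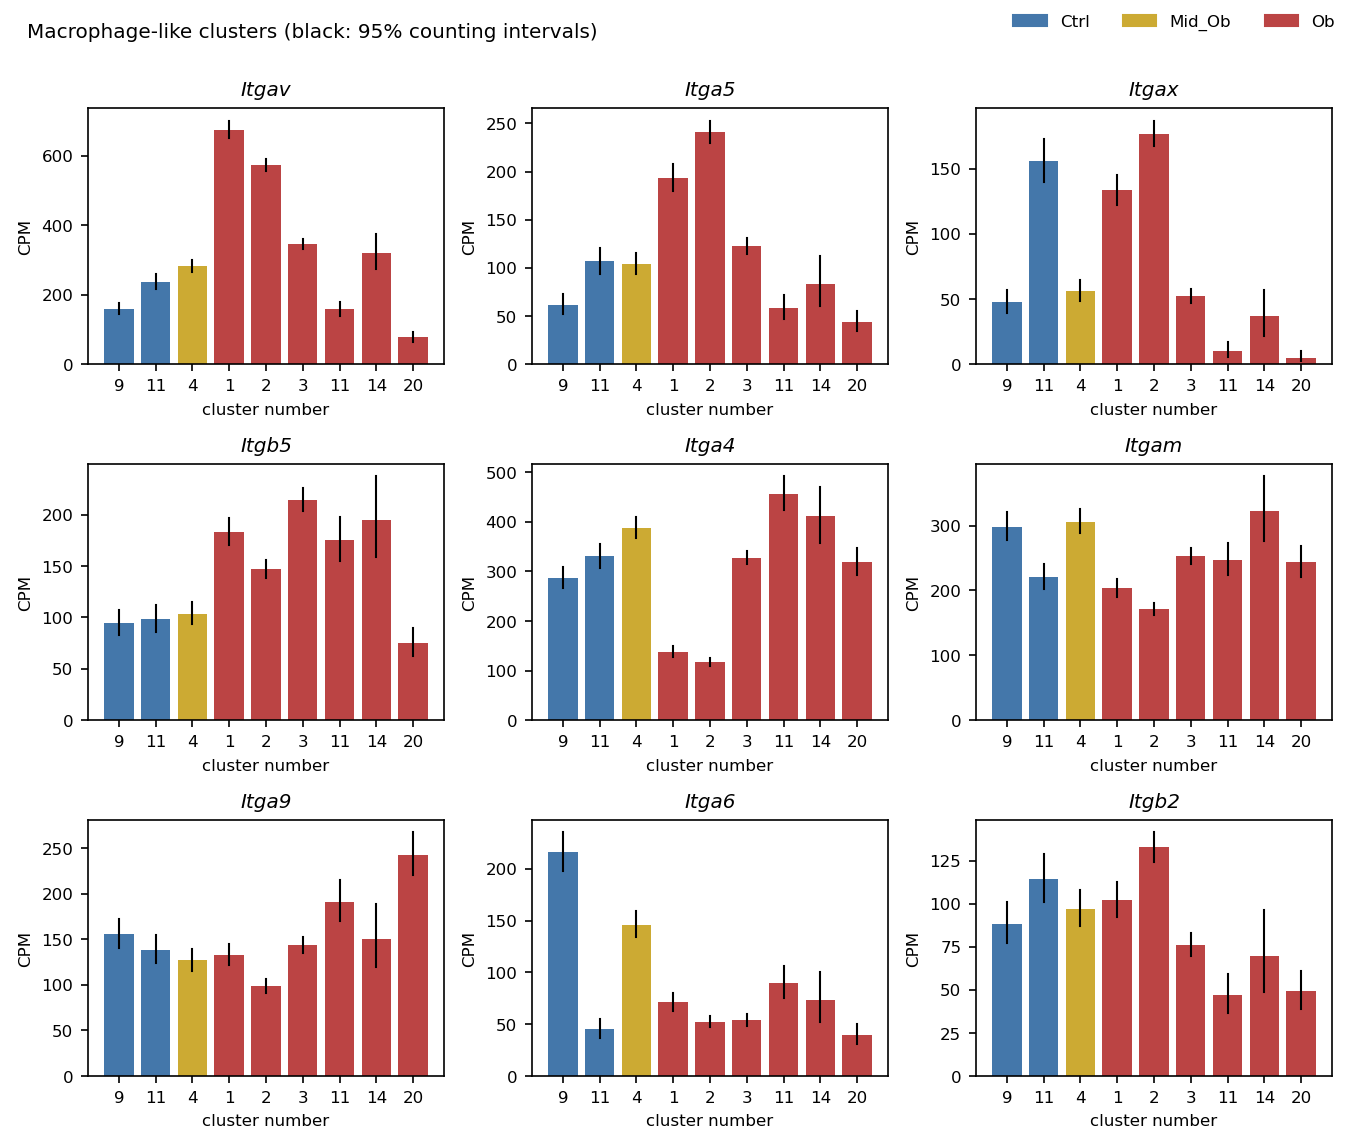
CPM of 9 integrin subunits in each macrophage-like cluster (x axis, cluster number within its library; blue Ctrl, yellow Mid_Ob, red Ob; black bars, 95% counting intervals). Among the Ob clusters, Itgav, Itga5 and Itgax are highest in clusters 1 and 2 and lowest in cluster 20, where Itga9 is highest, and Itga6 is high in cluster 9 of Ctrl and not in cluster 11.

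Several members were lower in the macrophage-like clusters of Ob. Itga6 stood at 146 CPM in Mid_Ob and 58.3 in Ob (2.51-fold lower, 2.26 to 2.78), and at 216 and 45.3 CPM in clusters 9 and 11 of Ctrl, so against Ctrl it depends on the cluster. Itgal (27.6 and 5.12 CPM), Itgb7 (26.2 and 8.65 CPM) and Itgae (17.2 and 3.57 CPM), subunits of lymphocytes, were lower in Ob than in Mid_Ob. Of the 7 lymphocyte markers with enough UMIs, 6 were lower in the same comparison; their part was not tested. Itga1 (41.1 and 16.7 CPM), Lama2 (46.2 and 29.6 CPM), Nid2 (20.3 and 9.01 CPM) and Agrn (15.5 and 5.45 CPM) were lower too, Lama2 by 1.24-fold and within the limit without cluster 2 of Ob. Nid2 was lower in Ob than in Mid_Ob in adipocyte-like, macrophage-like and mesothelial-like clusters.

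The start regions of 4 alpha subunits higher in the whole Ob library are shown here. Their products mark myeloid cells, or the genes were highest in Gpnmb-rich clusters among the macrophage-like clusters of Ob. Over all named classes of Ob, Itga5 was highest in fibroblast or progenitor-like clusters (251 CPM), with macrophage-like clusters next (163 CPM). GAGGAA is a core recognised by PU.1, a transcription factor of the myeloid lineage. In the RefSeq promoters (GRCm38.p6), GAGGAA or its reverse complement TTCCTC was found in the 250 bases before the start of 23.3% of 32851 promoters. Counted by gene, it was found in 25.9% of 27025 genes and in 13 of the 25 members with a promoter in the table (52.0%). Those 13 included the sheet genes Lama2, Lama5, Lamb1, Lamb2, Lamb3 and Nid1, while Itgax, Itga4 and Itgb7 held none. The difference in share was not tested. Matches are descriptions of these letters and not sites of binding. The last 150 bases before each start are given 5′ to 3′ on the gene's strand, with matches in capitals.
Itgam: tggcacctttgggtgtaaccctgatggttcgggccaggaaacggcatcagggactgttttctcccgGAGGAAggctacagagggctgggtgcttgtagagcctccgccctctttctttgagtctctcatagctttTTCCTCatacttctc
Itgax: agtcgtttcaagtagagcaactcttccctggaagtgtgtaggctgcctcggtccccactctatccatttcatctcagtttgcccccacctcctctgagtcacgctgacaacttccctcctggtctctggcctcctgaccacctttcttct
Itga5: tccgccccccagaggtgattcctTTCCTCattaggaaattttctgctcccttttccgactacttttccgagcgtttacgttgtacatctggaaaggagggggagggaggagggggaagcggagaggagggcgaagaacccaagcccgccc
Itgav: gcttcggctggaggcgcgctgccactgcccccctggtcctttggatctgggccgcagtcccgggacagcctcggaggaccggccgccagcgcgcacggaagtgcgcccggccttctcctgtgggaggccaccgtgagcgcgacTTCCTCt
These stretches lie at chr7:128062490-128062639 (plus strand, Itgam), chr7:128129400-128129549 (plus, Itgax), chr15:103366792-103366941 (minus, Itga5) and chr2:83724247-83724396 (plus, Itgav). Itgam held 2 matches in the 250 bases, Itgav 2 (1 of them upstream of the stretch shown), Itga5 1 and Itgax none.

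Within mesothelial-like clusters (Ctrl 3 and 5, Mid_Ob 6, Ob 12), Nid2, Agrn and Lamc3 were lower in Ob and most other sheet genes stayed within the limit. Of 28 members in Mid_Ob over Ctrl, 2 were higher (7.14%, against 8.06% of all genes) and 2 lower (7.14%, against 12.3% of all genes). Of 27 in Ob over Mid_Ob, 3 were higher (11.1%, against 13.3% of all genes) and 4 lower (14.8%, against 9.58% of all genes). Of 30 in Ob over Ctrl, 6 were higher (20%, against 15.3% of all genes) and 7 lower (23.3%, against 18.1% of all genes). These shares are near those of all genes. Nid2, whose highest class was mesothelial-like in each library, stood at 255 and 227 CPM in clusters 3 and 5 of Ctrl, 185 CPM in Mid_Ob and 121 CPM in Ob. It was 2.04-fold (1.81 to 2.30) lower in Ob than in Ctrl.

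Agrn (66.3, 68.9 and 36.9 CPM), Lamc3 (38.5, 32.9 and 18.4 CPM) and Itgb8 (29.1, 25.2 and 10.8 CPM) were lower in mesothelial-like Ob nuclei than in both other stages, and Lama3 (56.2, 47.9 and 36.2 CPM) than in Ctrl, though Lama3 was within the limit without cluster 3 of Ctrl (1.08-fold). Itga3, which was 7.53-fold lower in the whole library of Ob, stood at 74.2, 75.7 and 68.0 CPM here, within the limit. Lama4 (611, 676 and 771 CPM) and Itgb3 (43.3, 47.1 and 51.0 CPM) also stayed within it. Itga4 (29.2, 31.7 and 85.3 CPM), Itgam (11.8, 20.97 and 55.7 CPM) and Itgb2 (10.9, 8.13 and 22.4 CPM) were higher in Ob than in both other stages. Macrophage markers without Lpl summed to 569 and 679 CPM in the Ctrl clusters, 407 CPM in Mid_Ob and 1255 CPM in Ob, and 12 of 15 were higher in Ob than in Mid_Ob; their part in these results was not tested.

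**Figure D5:**
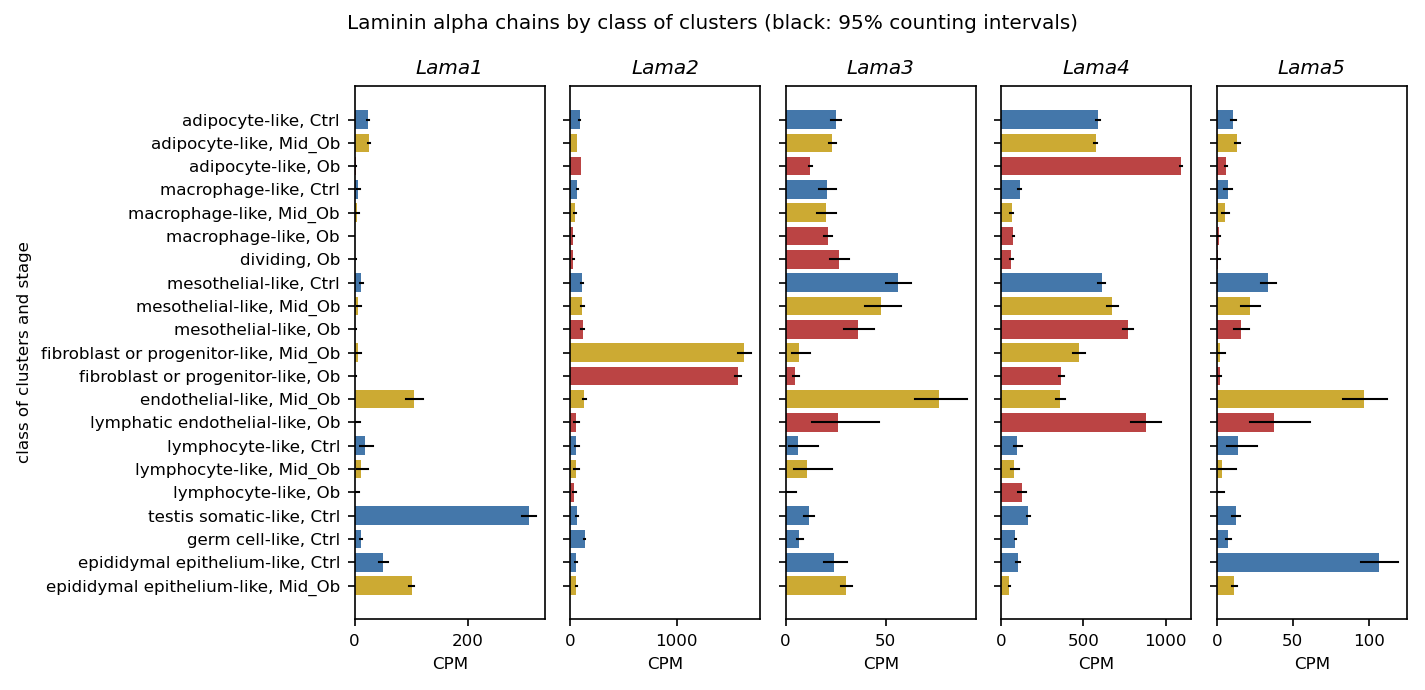
CPM of the 5 laminin alpha chains in each class of clusters and stage (blue Ctrl, yellow Mid_Ob, red Ob; black bars, 95% counting intervals; the x axis differs between panels). Lama2 is highest in fibroblast or progenitor-like clusters, Lama4 in adipocyte-like, mesothelial-like and lymphatic endothelial-like clusters, Lama1 in the testis somatic-like cluster, and Lama5 in the epididymal epithelium-like cluster of Ctrl and the endothelial-like cluster of Mid_Ob.

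Fibroblast or progenitor-like clusters were named in Mid_Ob (8) and Ob (8 and 19), where the markers of that list summed to 11100, 10943 and 4956 CPM. The naming rule left clusters 9 and 16 of Ob and cluster 4 of Ctrl unnamed, with sums of 10012, 11427 and 8428 CPM. Those clusters were not part of the comparison, so it holds no Ctrl values. Of 30 members in Ob over Mid_Ob, 4 were higher (13.3%, against 18.6% of all genes) and 7 lower (23.3%, against 13.4% of all genes). Lama2 stood at 1637 CPM in Mid_Ob and at 2198 and 868 CPM in clusters 8 and 19 of Ob, and Lamc1 at 889 CPM and at 905 and 436 CPM. Lamb1, Lamb2, Nid2, Itgb3 and Agrn were lower in Ob, for example Lamb2 at 55.9 and 24.3 CPM (2.30-fold, 1.77 to 2.97). The 4 higher members were Itga4, Itgam, Itgax and Itgb2. Several of these depended on cluster 19. Without it, of 11 members past the limit, Lamb2 and Itgb2 alone stayed so in the same direction with at least 50 UMIs. Agrn (4.51-fold lower), Itgb7 (2.41-fold lower) and Itgax (1.57-fold higher) kept their direction past 1.5-fold but fell under 50 UMIs. Itga10 (1.44-fold), Lamb1 (1.22-fold), Nid2 (1.25-fold) and Itgb3 (1.20-fold) came within the limit, and Itga4 and Itgam were lower in Ob. Macrophage markers without Lpl summed to 437 CPM in the Mid_Ob cluster and to 480 and 3877 CPM in clusters 8 and 19 of Ob, and Itgam stood at 26.0 CPM in the first and at 14.6 and 138 CPM in the others. Cluster 8 of Ob, on its own, lay below Mid_Ob for Itgam.

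Lymphocyte-like clusters (Ctrl 10, Mid_Ob 10, Ob 15) carried the lymphocyte subunits. Of 18 members in Mid_Ob over Ctrl, 4 were higher (22.2%, against 11.8% of all genes) and 1 lower (5.56%, against 14% of all genes). Of 16 in Ob over Mid_Ob, 2 were higher (12.5%, against 11.5% of all genes) and 1 lower (6.25%, against 11% of all genes), and of 19 in Ob over Ctrl, 7 were higher (36.8%, against 17.4% of all genes) and 3 lower (15.8%, against 19.2% of all genes). Itga4 stood at 888, 1280.2 and 1504 CPM, Itgal at 198, 315 and 350 CPM, and Itgb1 at 358, 483 and 645 CPM, each higher in Ob than in Ctrl. Lymphocyte markers were higher in the same comparison in 8 of 13 cases and lower in 4. Their sum in these clusters was 3193.6, 5985.5 and 8299.1 CPM, and the part of lymphocyte content in these results was not tested. Itgb7, the partner of Itga4 in gut homing, stayed within the limit (125, 154 and 158 CPM). Itga2, a subunit of natural killer and some T cells, stood at 28.2, 71.6 and 93.9 CPM from 18, 40 and 70 UMIs. Lamb3 was higher in Ob (54.9, 51.9 and 89.8 CPM), with Hsd11b1, which lies across it on the opposite strand, at 122, 251 and 271 CPM; reads of the pair cannot be told apart.

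Endothelium was not compared between stages, since no cluster was named endothelial-like in Ctrl and those named in Mid_Ob and Ob were of different kinds. Endothelial markers summed to 3067 CPM in cluster 9 of Mid_Ob and 5876 CPM in cluster 21 of Ob. They also summed to 2377.5 CPM in cluster 16 of Ob, which was left unnamed. That cluster carried fibroblast or progenitor markers at 11427 CPM and adipocyte markers at 9594 CPM too. In the endothelial-like cluster 9 of Mid_Ob, Itga1 stood at 452 CPM, Itga6 at 291 CPM, Itgb4 at 78.6 CPM, Lama5 at 97.0 CPM and Agrn at 100.2 CPM. In the lymphatic endothelial-like cluster 21 of Ob, Itga1 stood at 595 CPM, Itga6 at 292 CPM, Itga9 at 301 CPM, Itgb4 at 64.0 CPM and Lama4 at 877 CPM. Itga9 is known for its role in lymphatic valves.

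The other genes of the pathway came from 4 lists, counted in whole libraries. Beside these counts stand the shares of all genes, which were 17.3% higher and 35.5% lower in Mid_Ob over Ctrl, 17.5% and 27.3% in Ob over Mid_Ob, and 18.1% and 43.5% in Ob over Ctrl, and without testis and epididymis clusters 15.6% and 22.9%, 15% and 24.8%, and 17% and 31.9%. Of 22 basement membrane collagens and associated genes, 7 were higher and 8 lower in Mid_Ob over Ctrl, 1 higher and 11 lower in Ob over Mid_Ob, and 6 higher and 12 lower in Ob over Ctrl. The 3 comparisons without testis and epididymis clusters gave 7 and 7, 1 and 12, and 1 and 10. Col4a1, a chain of the main sheet collagen, stood at 242, 365 and 435 CPM in whole libraries and at 620.4, 652 and 546 CPM in adipocyte-like clusters. Col4a2 stood at 198, 254 and 304 CPM and at 519.9, 454 and 409 CPM, Sparc, a collagen-binding protein, at 142, 193 and 261 CPM and at 215, 264 and 227 CPM, and Smoc1 at 194, 180.3 and 242 CPM and at 510.3, 339.5 and 413 CPM. In adipocyte-like clusters Col4a1 and Col4a2 stayed within the limit in all 3 comparisons, while Smoc1 was 1.503-fold lower in Mid_Ob than in Ctrl.

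Of the other laminin receptors, 1 of 11 was higher and 1 lower in Mid_Ob over Ctrl, none of 10 was higher and 1 lower in Ob over Mid_Ob, and 2 of 11 were higher and 2 lower in Ob over Ctrl. Leaving out testis and epididymis clusters, none was higher in any of the 3 comparisons, and 1, 1 and 3 were lower. Sgcd, a sarcoglycan, stood at 2437, 2408 and 2527 CPM in adipocyte-like clusters, Utrn at 1753, 1896 and 1507 CPM, Dmd at 197, 147 and 176 CPM, and Dag1, the laminin-binding dystroglycan, at 135, 130.5 and 119 CPM, all within the limit. Of integrin ligands outside the sheet, 12 of 17 were higher and 3 lower in Ob over Mid_Ob, against 4 of 16 higher and 3 lower in Mid_Ob over Ctrl and 10 of 16 higher and 1 lower in Ob over Ctrl. Without testis and epididymis clusters 10 of 16 were higher and 3 lower in Ob over Mid_Ob, against 3 of 14 and 4 in Mid_Ob over Ctrl, and 7 of 16 and 2 in Ob over Ctrl. Fn1 stood at 138, 133 and 274 CPM, Col3a1 at 304, 274 and 582 CPM, Col1a2 at 105, 78.1 and 178 CPM, and Col1a1 at 33.8, 41.7 and 129.9 CPM in whole libraries. Within macrophage-like clusters Fn1 was instead lower in Ob than in Mid_Ob (599 and 203 CPM).

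Of 23 adaptors and kinases that link integrins to the cytoskeleton, 2 were higher and 3 lower in Mid_Ob over Ctrl, 6 higher and 3 lower in Ob over Mid_Ob, and 5 higher and 4 lower in Ob over Ctrl. The counts without testis and epididymis clusters were 2 and 4, 4 and 6, and 2 and 5. Lims1 was higher in Ob than in Mid_Ob (287, 281 and 444 CPM). Vcl (229.9, 267 and 330.3 CPM), Ptk2 (258, 278 and 239 CPM) and Tns1 (957, 791 and 682 CPM) stayed within the limit in whole libraries. Within adipocyte-like clusters Tns1, a tensin, was 1.64-fold lower in Mid_Ob than in Ctrl (2376 and 1445.5 CPM).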

How the data were processed

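Nuclei of pooled epididymal fat were sequenced in 1 library per stage and processed by the authors with Cell Ranger and its STAR aligner; for versions, genome build, annotation and strand setting the sources used here give nothing. The deposited signal of a gene in a cluster is its mean count per nucleus, scaled by size factors by the authors. The UMI counts were recovered from it; 100% of values were whole within 0.001 counts. The deposited log2 fold changes and adjusted p-values hold the authors' contrasts of a cluster with the other nuclei and were not used. Whether the doublet removal and the 5% mitochondrial limit of the study's methods had been applied to these tables is not known.

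CPM was the count divided by all UMIs of the library, class or cluster. Ratios carry 95% conditional exact binomial intervals and levels exact Poisson intervals, both for counting error only; 3 counts stood in for 0. A gene was called past 1.5-fold with at least 50 counts in the pair. Clusters were named from 16 marker lists, none of which holds a member: at least 3 markers of the list with a 2-fold excess and no contradiction among the 10 leading genes. The sum of macrophage markers without Lpl and the pathway list counts without testis and epididymis clusters were chosen after seeing the data. The members, pathway lists and marker lists were chosen with earlier results of these data known. Values are given for members past the limit with at least 200 counts and for the member with the most counts of each role, plus further members for completeness; of each pathway list the 4 genes with the most counts are named. The values of 1 member are not reported here, and it is left out of the plots but not of the counts. Overlapping genes were taken from GENCODE M21, in which 99.8% of the 29625 gene IDs were found. Promoters came from RefSeq. The calculation was tested on simulated data of 29625 genes, in which the intervals held the true ratio for 95.6% of genes in Mid_Ob over Ctrl, 95.5% in Ob over Mid_Ob and 95.4% in Ob over Ctrl. The simulated counts varied by counting error alone, as the intervals assume. The check therefore covers the calculation and not variation between animals, libraries or cell content. Values were computed in Python 3.11.15 with pandas 2.3.3 and numpy 2.4.6, intervals with scipy 1.17.1, and plots drawn with matplotlib 3.10.9.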

Additional observations from a re-analysis of the deposited data

Results flagged for a closer look

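In 7 cases a member passed 1.5-fold in opposite directions in 2 classes of clusters. With 1 library per stage these differences were not tested. In Ob over Mid_Ob the log2 ratio of Itga4 in adipocyte-like less that in macrophage-like clusters was 1.48, and that in macrophage-like less that in mesothelial-like clusters was -2.16. In the same comparison the difference between adipocyte-like and macrophage-like clusters was -1.46 for Itgb5 and 1.29 for Lama2. With cluster 5 of Ob set apart, Itga4 and Lama2 were lower in adipocyte-like clusters too (log2 ratios of -1.21 and -0.87), so the opposite directions were not there without that cluster. In Ob over Ctrl the difference was 1.53 for Itga1 and 1.53 for Lama4. Without cluster 9 of Ctrl, Lama4 was higher in macrophage-like clusters as well (0.75) and Itga1 was within the limit there (1.23-fold lower). In Mid_Ob over Ctrl the log2 ratio of Itgam in adipocyte-like less that in mesothelial-like clusters was -1.46. With scaling by the median of gene ratios, Itgam was 1.46-fold lower in adipocyte-like clusters, which is within the limit.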

How the results depend on the processing

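No paired analysis was possible because each stage has 1 library and the labels give no replicate numbers. Of 144 alternative values for the 24 counts of members higher or lower, 123 stayed within 1.5 times the count given. Of 1382 alternative values for ratios of single members, 1016 were classed as the same, 341 as moved without a change of direction, and 25 changed direction. Those classed as the same include 206 from the minimum of 10 counts and 66 from that of 200 counts, which cannot alter a ratio. The causes were not tested. In whole libraries without testis and epididymis clusters, 9 members were lower in Mid_Ob over Ctrl and 6 higher in Ob over Ctrl, with log2 ratios of -0.11 for Itga3 (Mid_Ob over Ctrl) and 0.52 for Itgb6 (Ob over Ctrl). With every cluster at equal weight, 7 were higher in Ob over Mid_Ob, with -0.0038 for Lamb1, and 0.53 for Itgb4 in Ob over Ctrl. In adipocyte-like clusters, scaling by the median of gene ratios gave 3 lower in Mid_Ob over Ctrl. Without cluster 5 of Ob, 5 were higher in Ob over Mid_Ob, with -0.44 for Itga5, -1.21 for Itga4, -0.996 for Itga9, -0.83 for Itgam, -0.53 for Itgb2 and -0.87 for Lama2, and in Ob over Ctrl -0.16 for Itga5, -0.28 for Itgav, -1.46 for Itgam and -0.63 for Itgb2. In macrophage-like clusters, Mid_Ob over Ctrl gave 4 higher at a minimum of 10 counts, 12 higher and 1 lower without cluster 9 of Ctrl, and 4 higher and 10 lower without cluster 11. The log2 ratio was then 0.23 for Itgax without cluster 11, and 0.56 for Lama4 and 1.02 for Lamb1 without cluster 9. Ob over Mid_Ob gave 3 higher with equal weights or without cluster 2 of Ob. Ob over Ctrl gave 3 higher without cluster 2 of Ob, and 10 higher and 7 lower without cluster 9 of Ctrl, with 0.37 for Itga6, 0.32 for Lama2, 0.75 for Lama4, 0.76 for Lamb1, 0.22 for Lamb2, 0.39 for Lamb3, 0.31 for Lamc1 and 0.30 for Hspg2. In mesothelial-like clusters a minimum of 10 counts gave 5 higher and 6 lower in Mid_Ob over Ctrl and 6 higher and 9 lower in Ob over Mid_Ob, and leaving out cluster 3 or cluster 5 of Ctrl gave 1 lower in Mid_Ob over Ctrl. The median log2 ratio of all genes, which the other scaling sets to 0, was -0.16 and -0.35 in whole libraries against Ctrl and -0.12 in adipocyte-like clusters of Ob over Ctrl. Depth limits the lymphocyte-like comparisons most, where 16 to 19 members had enough counts.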

Other observations

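Several clusters that the naming rule left unnamed carried members at high levels, among them those with the fibroblast and endothelial marker sums given above. In Ctrl, cluster 4 held Lama2 at 1153 CPM, Lamc1 at 888 CPM and Itga11 at 131 CPM. In Mid_Ob, cluster 7 held Itgav at 403 CPM, Lama1 at 158 CPM and Itgb6 at 54.2 CPM. In Ob, cluster 6 held Itga4 at 694 CPM and Itgam at 364 CPM, and cluster 9 held Lama2 at 1881 CPM and Itga5 at 358 CPM. Lama1, at 2.03 CPM in the whole Ob library, stood at 45.4 CPM in cluster 17 of Ob, together with Lama5 at 68.4 CPM and Itgb6 at 29.0 CPM. In cluster 16 of Ob, Itga1 stood at 422 CPM and Hspg2 at 314 CPM. The dividing cluster 10 of Ob held Itgav at 405 CPM and Itga5 at 153 CPM.

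There were 6 genes outside the name rule whose names start like those of members. Itga2b, which encodes the alpha IIb integrin subunit of platelets, stood at 5.56, 8.71 and 1.82 CPM in Ctrl, Mid_Ob and Ob. Itgbl1, a secreted protein with integrin-like repeats, stood at 175, 118 and 73.2 CPM, and Itgb3bp at 71.0, 47.5 and 36.1 CPM. Itgb1bp1 stood at 21.03, 24.8 and 31.1 CPM, Itgb1bp2 at 2.04, 3.26 and 2.99 CPM, and Itgb2l at 0.852, 5.86 and 0.269 CPM.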
